A study of Mus musculus with 8 samples.

Results

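The 9 genes described here, Atf4, Ddit3, Trib3, Chac1, Ppp1r15a, Sesn2, Gadd45a, Cebpb and Vldlr, belong to the ATF4 and CHOP stress response and were taken by symbol from a table of 46477 rows. Each of the 9 symbols had 1 row. Of these genes, 8 had a mean of at least 1 FPKM (fragments per kilobase of transcript, scaled to the mapped reads of the library) over the 8 libraries and were tested with 6917 rows in all, and Vldlr lay below that level. The cells were B16-F10, an established mouse melanoma line. They had been grown for 24 hours on extracellular matrix (ECM) left by smooth muscle cells (SMCs), which had been lysed and washed off before the melanoma cells were added. The SMCs had first received siRNA for 72 hours and then a change of medium for another 72 hours. The siRNA groups were siNT, taken here as the control, siKLF4, against the transcription factor KLF4, siFN, against the matrix protein fibronectin, and siKLF4-siFN. The media were SFM, which the labels do not spell out, and TCM, read from the series title as medium conditioned by B16-F10 tumor cells. Each of the 8 combinations of medium and siRNA had 1 library, and the labels do not say whether separate cultures were used. KLF4 and fibronectin were thus targeted in the SMCs that made the matrix, not in the melanoma cells that were sequenced, and the knockdown itself was not measured in these libraries.

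When kinases that sense unfolded protein in the endoplasmic reticulum, amino acid shortage, viral RNA or lack of heme phosphorylate the initiation factor eIF2alpha, most translation slows while the Atf4 mRNA is translated more. The ATF4 protein induces CHOP, which the gene Ddit3 encodes, and with it and other basic leucine zipper partners induces genes for amino acid supply, redox balance and feedback. GADD34, the product of Ppp1r15a, brings a phosphatase to eIF2alpha and so restores translation, while TRIB3 binds and restrains ATF4, CHOP and the kinase AKT. Because ATF4 is controlled largely at translation, its mRNA is an incomplete measure of its activity, and the libraries measured mRNA alone.

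Promoter windows that hold a match to a stress element are shown first, because ATF4 is known to act through a C/EBP-ATF response element (CARE) and because Ppp1r15a is a known target of CREB-type factors. The windows, from RefSeq (GRCm38.p6), ran from 250 bases before to 50 bases after a transcription start, and 10 windows matched the 9 genes. Both strands were searched for CARE (TGATGNAA), the cyclic AMP response element or CRE (TGACGTCA), the CCAAT box (CCAAT), and the endoplasmic reticulum stress element or ERSE (CCAAT and CCACG separated by 9 free bases, so that each ERSE also holds a CCAAT box). Sequences run 5′ to 3′ on the gene's own strand, with positions counted from the start site, and capitals mark the CARE match or, in Ppp1r15a, the CRE match. The Trib3 stretch (chr2:152344031-152344210, minus strand, positions -150 to 30), the Chac1 stretch (chr2:119350992-119351241, plus strand, positions -250 to -1), the Ppp1r15a stretch (chr7:45526239-45526418, minus strand, positions -150 to 30) and 30 bases before the second Vldlr start (chr19:27216809-27216838, plus strand, positions -211 to -182) were as follows.
Trib3: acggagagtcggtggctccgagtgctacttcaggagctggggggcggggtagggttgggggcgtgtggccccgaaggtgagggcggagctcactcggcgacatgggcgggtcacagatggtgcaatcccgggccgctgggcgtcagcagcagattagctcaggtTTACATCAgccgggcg
Chac1: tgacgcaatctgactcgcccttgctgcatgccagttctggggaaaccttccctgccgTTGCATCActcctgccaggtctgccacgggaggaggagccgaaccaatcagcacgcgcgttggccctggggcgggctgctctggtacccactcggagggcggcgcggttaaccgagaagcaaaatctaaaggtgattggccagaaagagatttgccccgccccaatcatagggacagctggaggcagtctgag
Ppp1r15a: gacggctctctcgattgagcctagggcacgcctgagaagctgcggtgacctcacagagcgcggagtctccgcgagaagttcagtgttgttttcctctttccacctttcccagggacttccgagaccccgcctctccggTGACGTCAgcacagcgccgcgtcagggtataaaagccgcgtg
Vldlr: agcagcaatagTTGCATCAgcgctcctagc

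These 4 are the windows with a CARE or CRE match. A CARE match was found in 3 of the 10 windows, those of Trib3, Chac1 and Vldlr, and in 3.97% of all 32851 windows of the same length. All 3 lay on the strand opposite to the gene. The CRE match in Ppp1r15a, at positions -12 to -5, sat just before the start, and 1.79% of all windows held a CRE. A CCAAT box was present in windows of Atf4, Ddit3, Chac1, Sesn2, Gadd45a and Vldlr, against 37.4% of all windows, and no ERSE was found in the 10 windows (0.119% of all windows). A match describes letters and is not a shown binding site. Trib3 and Chac1 were among the genes that varied most together, as given below, whereas Vldlr, with the same kind of match, was close to the limit of detection. Gadd45a and Cebpb, without a CARE match, varied together nearly as closely. A link between the match and expression was not tested.

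The deposited table holds no read counts, and the depth of each library is not given. From the spacing of low FPKM values it was estimated at 11600000 to 23100000 reads, although only 45.0% to 48.8% of the low values examined lay within 0.05 read of a whole number, so these depths are approximate. The identity of the cells was checked with marker genes. Of 11 melanocyte markers, 8 had a mean of at least 1 FPKM, and Mitf, Gpr143 and Kit did not. The sum over the list was 359.8 to 592.2 FPKM per library. Of 12 smooth muscle markers only Des reached that level, the list summed to 1.32 to 2.41 FPKM, and Acta2 and Myocd were listed at 0 throughout. Of 12 fibroblast markers only Gsn did so (1.35 to 2.46 FPKM in all, with Col3a1, Dcn, Lum, Thy1 and Mfap5 at 0). Endothelial markers reached 1 FPKM in 1 of 10 genes (Eng; 3.76 to 5.98 FPKM in all, with Cdh5, Kdr, Tie1 and Cldn5 at 0), and leukocyte markers in 1 of 10 (Cd68; 1.96 to 4.56 FPKM in all, with Itgam, Adgre1, Cd3e, Cd14 and Tyrobp among those at 0). Among the 28 pairs of libraries, TCM siFN and TCM siKLF4-siFN were the closest, with 20 of 6917 genes at least 1 apart on the log2(FPKM + 1) scale and the 8 tested stress genes at most 0.11 apart. SFM siKLF4-siFN had the most distant pairs, with 596 to 710 genes at least 1 apart from siNT and siKLF4 on SFM matrix and from siFN and siKLF4-siFN on TCM matrix. It was nearer to SFM siFN (207 genes), TCM siNT (238) and TCM siKLF4 (404). The calls among the 8 tested stress genes are also given without SFM siKLF4-siFN, and those in other gene lists are not.

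**Figure D1:**
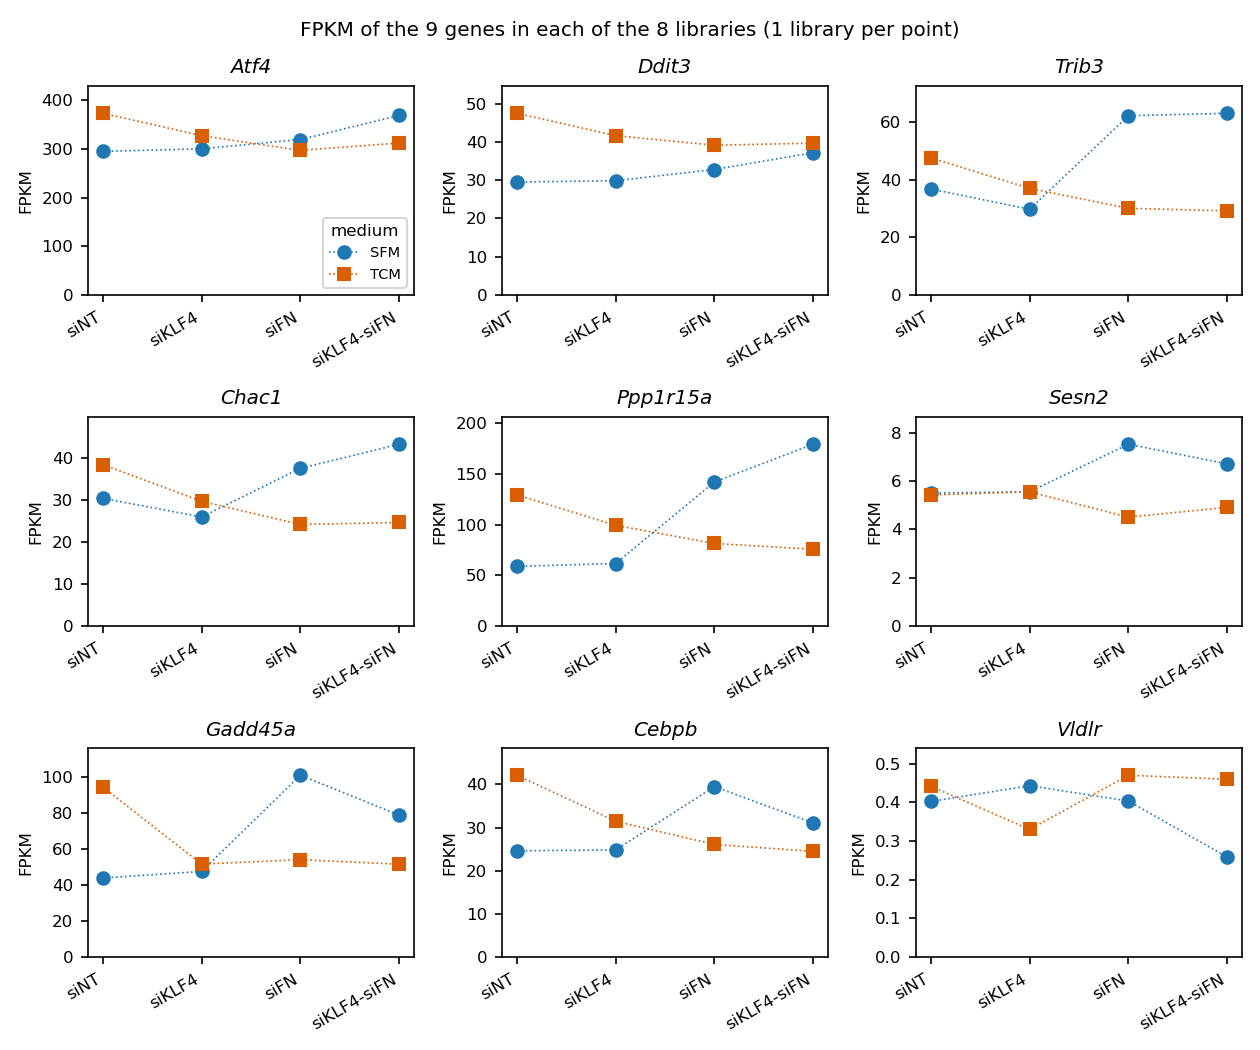
FPKM (vertical axis, from 0, a scale of its own in each panel) of the 9 genes by siRNA (horizontal axis) and medium (colour and symbol), with 1 library per point and dotted lines only to guide the eye. In Trib3, Chac1, Ppp1r15a and Gadd45a the 3 highest libraries were SFM siFN, SFM siKLF4-siFN and TCM siNT, while Ddit3 was higher in every TCM library than in any SFM library.

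Atf4, the transcription factor that gives the response its name, was the most abundant of the 9 transcripts and varied least. It ranked 90 of the 6917 tested genes by mean FPKM. On SFM matrix it stood at 295 FPKM with siNT, 300.03 with siKLF4, 319 with siFN and 369 with siKLF4-siFN, and on TCM matrix at 373, 327, 297 and 312 FPKM in the same order. The highest library, TCM siNT, was 1.27-fold above the lowest, SFM siNT, and the media overlapped. About 8207 to 16028 reads lay behind each value, which sets a counting error of 0.790% to 1.10%. The gene lies on the plus strand of chromosome 15, 80255184 to 80257541 (GRCm38).

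Ddit3, on the plus strand of chromosome 10 (127290774 to 127296288), encodes CHOP, a factor that drives cell death in prolonged stress. Its FPKM on SFM matrix was 29.5 with siNT, 29.9 with siKLF4, 32.8 with siFN and 37.2 with siKLF4-siFN. On TCM matrix it was 47.5, 41.6, 39.1 and 39.7 FPKM in the same order. The lowest TCM library was thus above the highest SFM library, which held for Ddit3 alone among the 8 tested members and for 251 of all 6917 genes (3.63%). About 593 to 1343 reads gave each value a counting error of 2.73% to 4.11%. A second gene model of the same name overlaps Ddit3 in the annotation, and the table has 1 row for the symbol.

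Cebpb, on the plus strand of chromosome 2 (167688915 to 167690418), encodes C/EBPbeta, a partner of both ATF4 and CHOP. Its FPKM was 24.6 with siNT, 24.8 with siKLF4, 39.5 with siFN and 31.1 with siKLF4-siFN on SFM matrix, and 42.1, 31.5, 26.1 and 24.5 on TCM matrix. TCM siNT and SFM siFN were highest, and SFM siNT and TCM siKLF4-siFN were nearly equal at the bottom of the range.

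The feedback genes Ppp1r15a and Trib3 moved over a wider range than the factors. Ppp1r15a, on the minus strand of chromosome 7 (45522916 to 45526268), was at 58.8 FPKM with siNT, 61.6 with siKLF4, 142 with siFN and 179 with siKLF4-siFN on SFM matrix. On TCM matrix it was at 129, 99.3, 81.4 and 75.6 FPKM. Its highest library was 3.05-fold above its lowest, the widest ratio of the 9 genes, and siFN libraries were the high ones on SFM matrix and the low ones on TCM matrix. Trib3, on the minus strand of chromosome 2 (152337422 to 152344032), was at 36.8, 29.7, 62.2 and 63.1 FPKM on SFM matrix and at 47.6, 37.0, 30.1 and 29.2 FPKM on TCM matrix, with the siRNAs in the same order. The SFM libraries with siFN were above all others, and the TCM libraries with siFN were at the level of SFM siKLF4.

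Chac1 and Sesn2 act on redox balance and growth. Chac1, on the plus strand of chromosome 2 (119351229 to 119354381), encodes an enzyme that degrades glutathione. It was at 30.4 FPKM with siNT, 26.0 with siKLF4, 37.6 with siFN and 43.3 with siKLF4-siFN on SFM matrix, and at 38.5, 29.7, 24.2 and 24.7 FPKM on TCM matrix. Its profile was close to that of Trib3, with SFM siKLF4-siFN highest and TCM siFN lowest. Sesn2, on the minus strand of chromosome 4 (132492032 to 132510501) and overlapped by another annotated locus, encodes a leucine sensor that restrains mTORC1. It was the lowest of the tested members at 5.50, 5.55, 7.52 and 6.71 FPKM on SFM matrix and 5.42, 5.55, 4.50 and 4.91 FPKM on TCM matrix, with the siRNAs in the same order. Only the SFM libraries with siFN stood above the rest. About 224 to 548 reads gave each Sesn2 value a counting error of 4.27% to 6.68%.

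Gadd45a, a growth arrest gene induced by DNA damage as well as by ATF4, lies on the minus strand of chromosome 6 (67035096 to 67037457). Its FPKM was 43.8 with siNT, 47.5 with siKLF4, 100.9 with siFN and 78.8 with siKLF4-siFN on SFM matrix, and 94.4, 51.5, 54.0 and 51.5 on TCM matrix. TCM siNT stood near the SFM libraries with siFN, and the other 3 TCM libraries were near the SFM libraries without it. Vldlr, on the plus strand of chromosome 19 (27216484 to 27254231), encodes a lipoprotein receptor that ATF4 is known to induce. It was barely detected, between 0.259 FPKM in SFM siKLF4-siFN and 0.471 FPKM in TCM siFN, on about 34 to 93 reads with a counting error of 10.3% to 17.2%. The highest library was 1.82-fold above the lowest.

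Over the 8 tested genes, each centred on its own mean log2(FPKM + 1), the average on SFM matrix was -0.26 with siNT, -0.30 with siKLF4, 0.34 with siFN and 0.35 with siKLF4-siFN. On TCM matrix it was 0.32, -0.02, -0.21 and -0.22 with the siRNAs in the same order. The high libraries were thus the SFM ones with siFN, alone or with siKLF4, and the TCM one with siNT. Mitosis genes were low in those same 3 libraries. The centred average of the 17 tested mitosis genes of 26 listed was -1.24 (siFN) and -1.27 (siKLF4-siFN) on SFM matrix and -0.59 with siNT on TCM matrix, and it was 0.57 to 0.64 in the other 5. The part of cell division in the levels of the stress genes was not tested. In bulk RNA, a change in how many cells express a gene and a change in RNA per cell cannot be told apart.

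Across the 8 libraries, Pearson's r between pairs of the 8 tested genes had a median of 0.74 over 28 pairs, as a description of libraries that share media and siRNAs. Trib3 and Chac1 were the most alike (r = 0.96), followed by Gadd45a and Cebpb (r = 0.91). Ddit3 stood apart, with r = 0.07 to Trib3, 0.15 to Chac1 and -0.31 to Sesn2, the lowest of the 28. Its highest correlation with another member was to Atf4 (r = 0.63).

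The first comparison asked whether siFN in the SMCs went with a different level of the stress genes in melanoma cells on each matrix. On SFM matrix Ppp1r15a rose by 1.39 ± 0.20 (SE) on the log2(FPKM + 1) scale with siFN (limma, adjusted p = 0.0331) and Trib3 by 0.90 ± 0.16 (limma, adjusted p = 0.0375), comparing the 2 libraries with siFN against the 2 without. All 8 tested genes had estimates above 0, with a median of 0.50 against 0.01 over all genes, and 2 of 8 passed an adjusted p of 0.05, against 3.17% of all 6917 genes called higher. Gadd45a came next at 0.95 ± 0.24 (limma, adjusted p = 0.0640). Chac1 (0.51), Cebpb (0.49), Sesn2 (0.31), Ddit3 (0.23) and Atf4 (0.21) did not pass, with limma adjusted p-values of 0.104 to 0.381. On TCM matrix the siFN estimates of the 8 genes were all below 0, from -0.53 in Ppp1r15a to -0.17 in Ddit3. None of the 8 passed, and limma called 0 of 6917 genes there (0%), with 391 genes and 4 of the 8 at an unadjusted p under 0.05. These estimates on TCM matrix rest in part on the library TCM siNT. Without it Gadd45a was at -0.02, Ddit3 at -0.04 and Atf4 at -0.05, while Sesn2 moved the other way, to -0.20.

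The interaction of medium with siFN, which tests the difference between those responses, was below 0 in all 8 tested genes. It was -1.92 ± 0.28 (SE) for Ppp1r15a (limma, adjusted p = 0.0375) and -1.39 ± 0.23 for Trib3 (limma, adjusted p = 0.0385). These 2 of 8 passed, against 3.34% of all genes called lower, and the median of the 8 was -0.98 against -0.06 over all genes. Values were -1.35 ± 0.35 for Gadd45a (limma, adjusted p = 0.0617), -0.998 ± 0.24 for Cebpb (adjusted p = 0.0530) and -0.96 ± 0.26 for Chac1 (adjusted p = 0.0662). Sesn2 (-0.50), Atf4 (-0.40) and Ddit3 (-0.40) had limma adjusted p-values of 0.115 to 0.242. With 1 library per condition these tests use libraries that share a level in place of replicates, so p-values reflect only how far these libraries differ, which may be technical. The call for both genes was lost without any 1 of the SFM libraries siNT, siKLF4 and siKLF4-siFN or of the TCM libraries siNT, siFN and siKLF4-siFN (0 of 8 called), and with a pseudocount of 0.1 or no filter on low values, while the interaction stayed below 0 in the 8 genes under all 16 alternatives. Other filters, the variance setting and protein-coding genes alone leave the estimate as it was, so only the remaining alternatives could change its sign. Without SFM siKLF4-siFN the interaction was -1.68 for Ppp1r15a and -1.27 for Trib3.

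Read from the other side, the same interaction shows the effect of the medium with and without siFN, and these contrasts share their libraries with those above. With siFN, TCM libraries were lower than SFM libraries in Trib3 (-1.06 ± 0.16 SE, limma adjusted p = 0.0243), Ppp1r15a (-1.02 ± 0.20, adjusted p = 0.0310), Sesn2 (-0.51 ± 0.13, adjusted p = 0.0457) and Chac1 (-0.70 ± 0.18, adjusted p = 0.0469). These 4 of 8 passed, against 8.53% of all genes called lower, and the median of the 8 was -0.60 against -0.01 over all genes. Gadd45a (-0.75, limma adjusted p = 0.0756) and Cebpb (-0.46, adjusted p = 0.0978) did not pass. Atf4 was at -0.17 and Ddit3, the only one above 0, at 0.17. Without the SFM library siKLF4-siFN or the TCM library siFN or siKLF4-siFN, 0 of 8 were called, and without siNT or siKLF4 of either medium, 2 were. For siFN on SFM matrix the count fell to 0 without siNT, siKLF4 or siKLF4-siFN of SFM, or without siFN or siKLF4-siFN of TCM.

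Without siFN, 7 of the 8 estimates for TCM minus SFM were above 0, with a median of 0.44 against 0.03 over all genes. The highest were Ppp1r15a at 0.90 ± 0.20 (SE), Gadd45a at 0.60, Ddit3 at 0.57 ± 0.16 and Cebpb at 0.54, while Sesn2 was at -0.01. None passed (limma adjusted p of 0.446 for Ppp1r15a and 0.506 for Ddit3), and 0 of 6917 genes did (0%), with 627 genes and 4 of the 8 at an unadjusted p under 0.05. This contrast averages TCM siNT and TCM siKLF4, which were unlike in the stress genes.

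**Figure D2:**
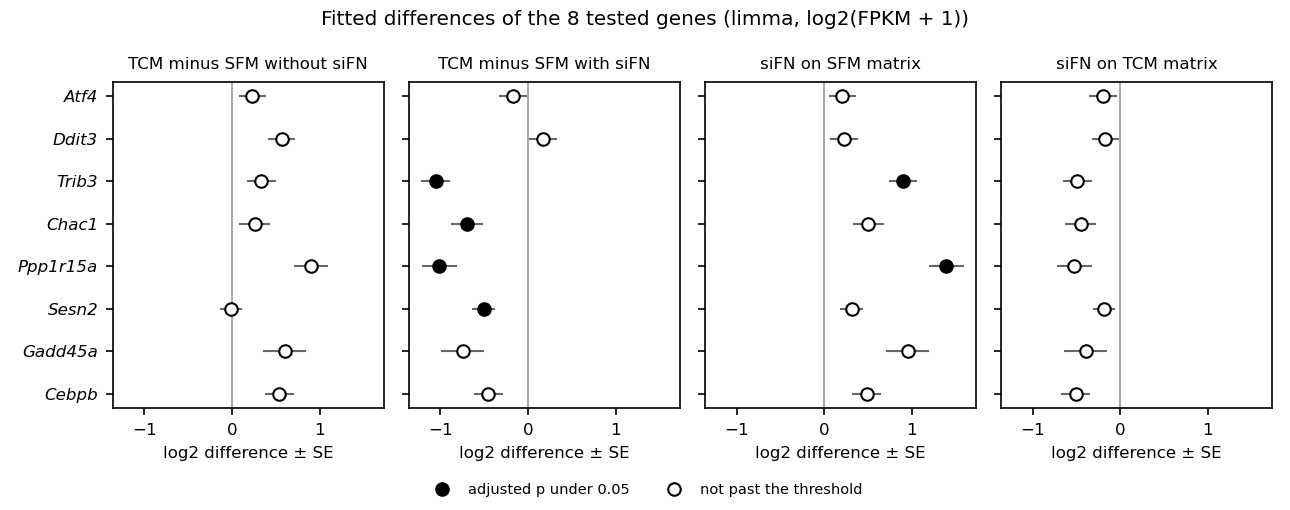
Fitted log2 differences (horizontal axis, ± SE) of the 8 tested genes (vertical axis) in 4 contrasts from the limma model with the interaction of medium and siFN; filled points passed an adjusted p of 0.05. TCM minus SFM with siFN holds 4 filled points (Trib3, Ppp1r15a, Sesn2 and Chac1) and siFN on SFM matrix holds 2 (Ppp1r15a and Trib3), and the other contrasts hold none.

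Pairs of single libraries, which have no replicate check, show where these contrasts came from. Between siNT libraries, Ppp1r15a was 1.12 and Gadd45a 1.09 higher on the log2(FPKM + 1) scale on TCM than on SFM matrix, the 2 of 8 genes past 1, where 0.564% of all genes were that much higher. Cebpb (0.75) and Ddit3 (0.67) followed. Between siKLF4 libraries 0 of 8 were past 1 in either direction (1.32% of all genes), with Ppp1r15a at 0.68 and Gadd45a at 0.12.

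Between siFN libraries 7 of the 8 genes were lower on TCM than on SFM matrix, with Ddit3 the exception at 0.25, and Trib3 was at -1.02, past 1 along with 1.82% of all genes that were lower. With siKLF4-siFN, Ppp1r15a (-1.24) and Trib3 (-1.09) were past 1, against 2.7% of all genes that were lower. Against SFM siNT, siKLF4 on SFM matrix moved 0 of 8 past 1 (0.723% of all genes), with estimates from -0.30 in Trib3 to 0.11 in Gadd45a. SFM siFN had Ppp1r15a (1.26) and Gadd45a (1.18) past 1, against 0.795% of all genes higher, and SFM siKLF4-siFN had Ppp1r15a (1.59), against 1.88%.

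On TCM matrix, 7 of the 8 genes were lower with siKLF4 than with siNT, with a median difference of -0.36 against 0.04 over all genes. Gadd45a differed most, at 51.5 FPKM against 94.4 (-0.86), followed by Cebpb (-0.41) and Ppp1r15a (-0.38), and Sesn2 was at 0.03. None of the 8 was past 1, where 1.78% of all genes were in either direction. Against TCM siNT, siFN had a median of -0.65 and siKLF4-siFN of -0.65, with all 8 below 0 in each, and again with 0 of 8 past 1 (1.86% and 2.04% of all genes). These 3 pairs share the library TCM siNT, so its own value enters each of them.

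Averaged over the other factors, none of the 8 genes was called for medium, siKLF4 or siFN, and limma called 0 of 6917 genes for each (0%, 0% and 0%; 464, 84 and 84 genes at an unadjusted p under 0.05, 1, 0 and 0 of the 8 among them). The spread in that model includes the medium by siFN difference described above, so it is not shown that these factors had no effect. Ddit3 had the highest medium estimate at 0.37 ± 0.14 (SE; limma, adjusted p = 0.688) and Trib3 the lowest at -0.36 ± 0.29. The siKLF4 estimates ran from -0.29 (Gadd45a) to 0.03 and those of siFN from -0.01 to 0.43 (Ppp1r15a). The interactions of medium with siKLF4 (-0.44 to 0.13) and of siKLF4 with siFN (-0.04 to 0.40) had 0 of 8 called and 0 of 6917 genes by limma (0% and 0%; 78 and 40 genes at an unadjusted p under 0.05). In a fit with no filter on low values, Vldlr had an interaction of medium with siFN of 0.18 ± 0.10 (limma, adjusted p = 0.374), the opposite sign to the other 8.

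Ddit3 and Atf4 kept a nearly fixed ratio within each medium, a pattern that was chosen after the values were seen and is given without a test. Ddit3 FPKM divided by Atf4 FPKM was 0.1001 with siNT, 0.0995 with siKLF4, 0.103 with siFN and 0.101 with siKLF4-siFN on SFM matrix. On TCM matrix it was 0.127, 0.127, 0.132 and 0.127. The mean was 0.101 ± 0.00140 (SD, n = 4 libraries with different siRNAs) on SFM and 0.128 ± 0.00227 (SD, n = 4) on TCM, 1.27-fold higher. The lowest TCM ratio exceeded the highest SFM ratio by 23.8%, whereas the ratios within a medium ranged over at most 3.61%. The estimated counting error of a single Ddit3 value was 2.73% to 4.11%. A range over 4 libraries is normally wider than the error of 1 value, so the closeness itself should not be relied on. Of 6915 genes divided by Atf4 in the same way, 68 (0.983%) had every TCM ratio above every SFM ratio, and 2, Ddit3 among them, stayed within as narrow a range inside each medium. In these values the siRNA differences in Ddit3 within a medium ran alongside those of Atf4, and the difference between media did not. Whether Ddit3 follows Atf4 was not tested.

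Among the 28 pairs of tested members, 5 had ratios that did not overlap between media. They were Ddit3 with Atf4, Chac1 and Sesn2, Atf4 with Sesn2, and Trib3 with Cebpb. Of the 8 genes, only Ddit3 took part in 3 of the 5. The 28 pairs share genes, and the share among pairs of all genes was not computed, so this is a description only.

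**Figure D3:**
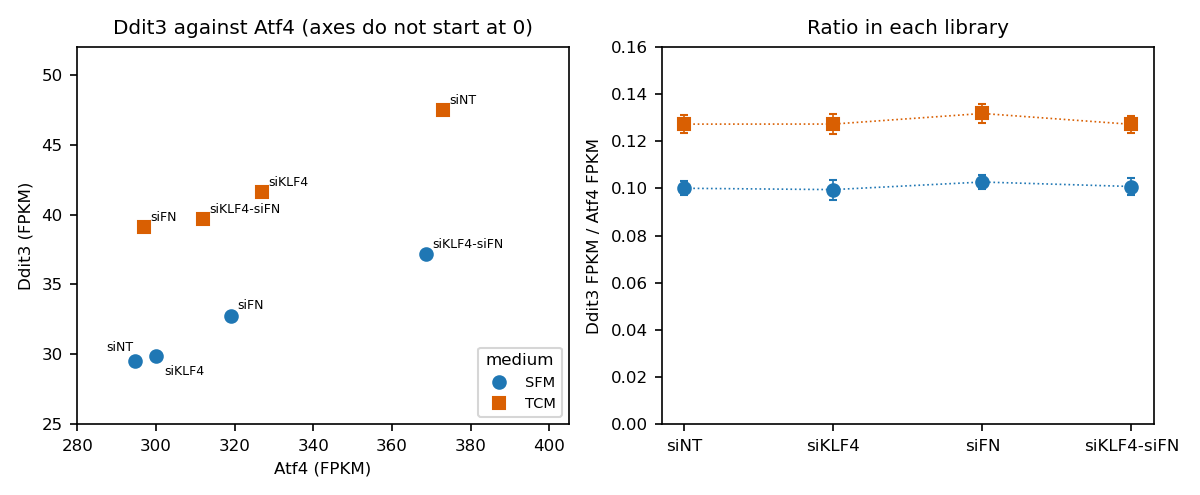
Left, Ddit3 against Atf4 (both FPKM, axes not starting at 0), 1 point per library labelled by siRNA; right, their ratio by siRNA (axis from 0), with bars showing the counting error estimated from approximate read numbers. The TCM libraries lie between 0.127 and 0.132 and the SFM libraries between 0.0995 and 0.103, with little spread among siRNAs.

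The other genes of the pathway were taken from lists of its inputs, factors, branches and targets. The inputs were a list of eIF2alpha kinases, eIF2, its exchange factor eIF2B and related genes. They had 0 of 11 tested genes called in the interaction of medium with siFN, and their median was -0.01. Eif2ak3 was the only kinase among the 11, so the list says little about the kinases. Eif2s2, a subunit of eIF2, was at 2.13 ± 0.52 (SE; limma, adjusted p = 0.0579), opposite in sign to the stress genes, and the next by p were Eif2a (0.72), Gcn1l1 (-0.44) and Eif2b2 (-0.45). Among other factors of the stress response 0 of 9 were called, with a median of -0.49. Atf5, a close relative of Atf4, was at -0.98 ± 0.26 (limma, adjusted p = 0.0668), on 48.6, 43.7, 60.6 and 74.0 FPKM on SFM and 67.9, 53.7, 46.7 and 41.4 on TCM matrix with siNT, siKLF4, siFN and siKLF4-siFN. Its 3 highest libraries were those of Chac1, in the same order. Nfe2l2, which encodes the oxidative stress factor NRF2, was at 0.69, Nfe2l1 at -0.60 and the stress cofactor Nupr1 at -0.49, and none passed.

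The ATF6 and XBP1 arms of the unfolded protein response, which supply chaperones, had 19 of 21 tested genes below 0 in the interaction, with a median of -0.80, and 1 called lower. That gene was Hyou1, a chaperone of the endoplasmic reticulum (-1.88 ± 0.32 SE; limma, adjusted p = 0.0401). Pdia6 (-1.06), Calr (-1.09) and Creld2 (-0.89) came next by p and did not pass. This 1 of 21 stands against 3.34% of all genes called lower. With siFN, 2 of the 21 were lower on TCM than on SFM matrix (8.53% of all genes), and 1 of 21 was higher with siFN on SFM matrix (3.17% of all genes), counts close to the background.

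Amino acid transport and synthesis genes, the best known ATF4 targets, had 5 of 20 tested genes called lower in the interaction, against 3.34% of all genes, and none called higher, with a median of -0.72. They were Pycr1, a proline synthesis enzyme (-1.56), the glycine transporter Slc6a9 (-1.21), the glutamine transporter Slc1a5 (-1.37), Slc3a2, the heavy chain of several amino acid transporters (-1.13), and Cth, which makes cysteine (-0.79) and was named after its value was seen. With siFN, 10 of the 20 were lower on TCM than on SFM matrix, where 8.53% of all genes were, and 3 of 20 were higher with siFN on SFM matrix, against 3.17%. Slc1a5 was at 7.11, 6.18, 17.0 and 14.3 FPKM on SFM and 8.10, 6.56, 5.51 and 6.49 on TCM matrix in the usual order of siRNAs. Unlike Ppp1r15a and Gadd45a, Slc1a5 was not near its SFM siFN level in TCM siNT.

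Other targets of ATF4 and CHOP, outside amino acid supply, had no shared direction. Their interaction had a median of 0.02, with 2 of 12 tested genes called lower, against 3.34% of all genes, and none higher. These were Hmox1, which degrades heme and is also a target of NRF2 (-1.80 ± 0.26 SE; limma, adjusted p = 0.0375), and Ndrg1 (-0.98 ± 0.18; adjusted p = 0.0426). Eif4ebp1, a repressor of cap-dependent translation, was at -0.95 and the autophagy receptor Sqstm1 at -0.95, and neither passed. Hmox1 was at 113, 93.4, 253 and 245 FPKM on SFM and 165, 111, 93.8 and 92.7 on TCM matrix, high in the same libraries as Trib3.

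Family relatives of the members had mixed directions, with a median interaction of -0.15. Of 8 tested relatives, 1 was called, Gadd45g, which was higher (0.87 ± 0.14 SE; limma, adjusted p = 0.0385), against an estimate of -1.35 for Gadd45a, where 3.83% of all genes were called higher. Gadd45g was at 1.54, 1.34, 0.583 and 0.515 FPKM on SFM and 1.49, 1.36, 1.81 and 1.83 on TCM matrix, lowest where Gadd45a was high with siFN. Gadd45b was at 0.95 (limma, adjusted p = 0.0802) and Trib1 at -0.85. Gadd45a and Sesn2 are also known targets of p53. Of 13 other tested p53 targets, 0 were called in the interaction, 10 had estimates above 0, and the median was 0.61. Cdkn1a, the cell cycle inhibitor p21, was at 1.03, and Trp53inp1 (2.22), Ccng1 (3.34) and Btg2 (1.30) were also above 0. Bax (-0.21), Plk2 (-0.11) and Plk3 (-0.0005) had estimates below 0, as had Gadd45a and Sesn2. A part of p53 in the levels of these genes was not tested. With siFN, 4 of the 13 were higher on TCM than on SFM matrix, against 8.41% of all genes.

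**Figure D4:**
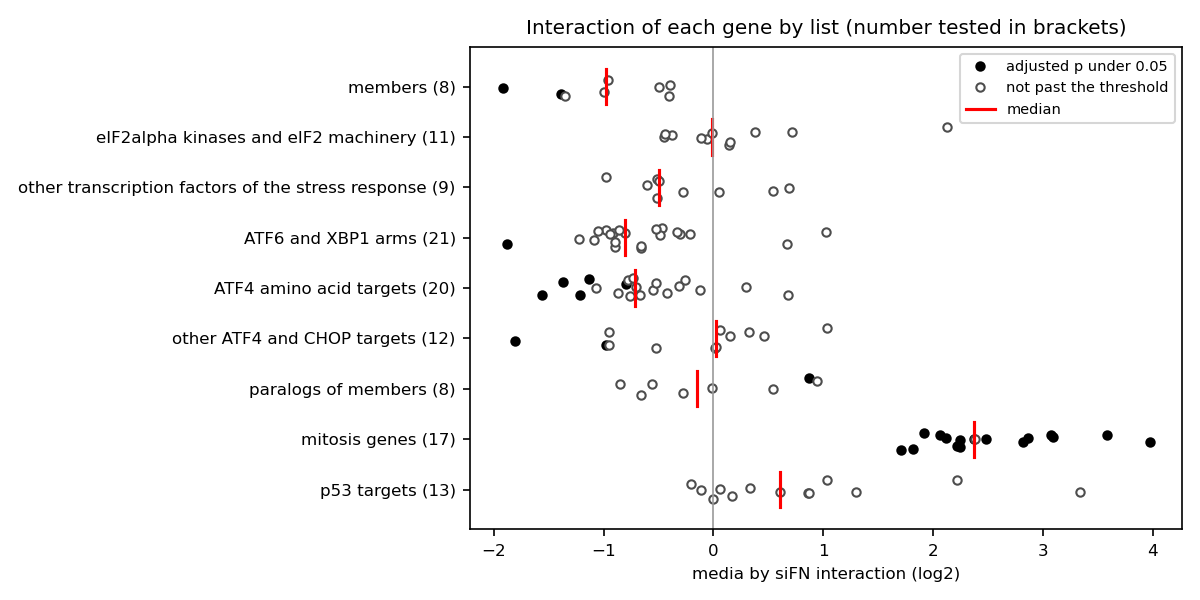
Interaction of medium with siFN (horizontal axis, log2 scale) for each tested gene of the stress genes and 8 other lists (vertical axis, number tested in brackets), with filled points past an adjusted p of 0.05 and red bars at list medians. The stress genes (median -0.98), the ATF6 and XBP1 arms (-0.80) and the amino acid targets (-0.72) lie mostly below 0, and the mitosis genes (2.37, 16 of 17 called higher) lie above it.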

How the data were processed

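RNA of B16-F10 cells was sequenced in 8 libraries, 1 per combination of medium and siRNA. The authors deposited FPKM values per gene symbol; STAR 2.4.1d, Partek and the mm10 build are named, per the submitters' processing notes. How reads were counted and scaled, on which annotation and strand, is not given in the sources used here. Of 46477 rows, 42096 (90.6%) matched a symbol in the GENCODE annotation of GRCm38, which gave positions, and 27 rows had symbols turned into dates.

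Values were analysed as log2(FPKM + 1) with limma 3.58.1 (R 4.3.3), two-sided, with a variance trend, for the 6917 genes with a mean of at least 1 FPKM, and p-values were adjusted by Benjamini-Hochberg over all of them. A gene was called at an adjusted p under 0.05. Medium, siKLF4 and siFN were fitted together (4 residual degrees of freedom), and each interaction was added alone (3). Single library pairs were compared by a log2 difference of at least 1. The models were checked on simulated data with independent noise, which does not cover shifts shared by many genes of 1 library. Depth, and with it counting error, was estimated from transcripts of at least 600 bases and covers counting error only.

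The members and lists were chosen with earlier results of these data known. Besides the members, up to 4 genes per list with the smallest interaction p were named, and the genes most correlated with each member and with their mean among those of at least 5 FPKM with symbols that are not provisional. Alternatives were other pseudocounts, filters, scalings and variance settings, protein-coding genes alone, and each library left out. Python 3.11.15 (pandas 2.3.3, scipy 1.17.1) was used for tables.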

Additional observations from a re-analysis of the deposited data

Results flagged for a closer look

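The genes below were selected because the response to siFN differed between the SFM and TCM matrix by the interaction term itself (limma, adjusted p under 0.05), so that the same contrast had unlike effects in the 2 media. Among the stress genes these were Trib3 (-1.39) and Ppp1r15a (-1.92). Among other genes of the pathway they were Hyou1 (-1.88), Pycr1 (-1.56), Slc6a9 (-1.21), Slc1a5 (-1.37), Slc3a2 (-1.13), Hmox1 (-1.80) and Ndrg1 (-0.98), taken from the up to 4 genes named per list. The amino acid gene Cth (-0.79) also passed and was named after its value was seen. The Gadd45a relative Gadd45g had the opposite sign (0.87). The mitosis genes Mki67 (2.25), Top2a (3.97), Ckap2 (2.22) and Prc1 (2.86), listed as context, also had the opposite sign. All values are log2 differences between the siFN effect on TCM and that on SFM matrix, each resting on 1 library per condition. The calls of all these genes were lost when any of several single libraries was left out.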

How the results depend on the processing

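Among the 8 tested stress genes, 2 were called in the interaction of medium with siFN, 4 for TCM minus SFM with siFN and 2 for siFN on SFM matrix. With no filter on low values each of the 3 counts was 0. For the interaction, the count was 0 with a pseudocount of 0.1, 4 with a mean of at least 5 FPKM and 5 with protein-coding genes alone. Over all genes these settings called 0 of 6917, 251 of 2598 and 1006 of 5343, against 496 of 6917 in the main fit. The higher counts thus came with more frequent calls over all genes. Leaving out 1 library at a time gave 0 to 4 for the interaction (4 without SFM siFN, 3 without TCM siKLF4), 0 to 3 for TCM minus SFM with siFN and 0 to 3 for siFN on SFM matrix. Over all genes the interaction had 496 calls, and 0 to 2065 with 1 library left out. Such fits leave 2 residual degrees of freedom. In most of them the interaction calls, including those in the other gene lists, were lost. The signs of the 8 genes did not change in these 3 contrasts, nor for siFN on TCM matrix, under 16 alternatives. Other filters, the variance setting and protein-coding genes alone leave each estimate as it was, so they could not change a sign. In contrasts within 1 medium or with siFN alone, leaving out a library outside the contrast could not either. In the averaged effects signs did change under at least 1 of 17 alternatives, in 4 genes for medium, 7 for siKLF4 and 6 for siFN. Sesn2 for TCM minus SFM without siFN was -0.01 and went from -0.028 to 0.0095 with 1 library left out, the latter without TCM siNT. The log2 ratio of Ddit3 to Atf4 was 0.34 to 0.36 higher on TCM than on SFM matrix under 9 alternatives chosen after seeing the data. No paired analysis was possible because the labels give no replicate numbers and each condition has 1 library. Vldlr has the fewest reads of the 9 genes, by the approximate depths.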

Other observations

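Genes with patterns like those of the stress genes were sought among 1795 genes with a mean of at least 5 FPKM and a symbol that is not provisional (such as Gm numbers and Rik clone names), members left out, by Pearson's r over the 8 libraries, as a description. With the mean of the 8 tested stress genes, the highest were Ywhag, a 14-3-3 adaptor (r = 0.99), Apobr (0.99), the zinc transporter Slc39a7 (0.98), Hyou1 (0.98) and the ribosomal protein gene Rpl10a (0.98). The lowest were Gjc3 (-0.97), Hnrnpa1 (-0.96), Top2a (-0.96), the sterol enzyme gene Lss (-0.95) and Mrpl18 (-0.95). Ywhag was at 15.1, 14.6, 21.9 and 24.2 FPKM on SFM and 22.6, 17.2, 15.0 and 14.9 on TCM matrix with siNT, siKLF4, siFN and siKLF4-siFN.

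Ddit3 had other neighbours than the rest. Its closest was Jun, an AP-1 subunit (r = 0.98), at 58.2, 57.8, 57.8 and 67.4 FPKM on SFM and 84.9, 74.6, 71.7 and 72.6 on TCM matrix, so that Jun too was higher in every TCM library than in any SFM library. Next came Hist2h2aa2 (r = 0.94). Atf4 was closest to Nfil3, another basic leucine zipper factor (0.98), and Nudt18 (0.97). Trib3 was closest to Chpf2 (0.996) and Fam136a (0.99), and Chac1 to the signal peptidase subunit Spcs2 (0.996) and Rabac1 (0.98). Ppp1r15a was closest to the nucleolar genes Nop2 (0.99) and Noc2l (0.99), and Sesn2 to Gyg (0.96) and Slc35b1 (0.95). Gadd45a was closest to Ghitm (0.99) and the mitochondrial folate enzyme gene Aldh1l2 (0.97), and Cebpb to Cpox (0.95) and Rars (0.95).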
